A study of Rattus norvegicus with 12 samples.

Results

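The genes described here are the potassium channel subunits of iAM-1, a myocyte line from the atria of newborn Wistar rats that is conditionally immortalized and multiplies under doxycycline. They are the features of the deposited count-per-million table whose gene name starts with Kcn, 94 of 32761 features, of which 33 had 0.5 CPM or more in at least 1 of 4 groups and 61 did not. CPM, counts per 1000000 reads of the library, allows libraries of different depth to be compared. PolyA-selected RNA from 12 samples was sequenced to ask what knockdown of Sbk2, which encodes a kinase with an SH3-binding domain, does to the transcriptome of these cells. The 4 groups of 3 samples were cells given a lentiviral vector with Sbk2 shRNA 1, cells given one with Sbk2 shRNA 2, cells given one with the control shRNA ppluc, and untransduced cells. All 4 groups were of the same line and strain and were differentiated in medium with 2% serum and no doxycycline, with the vectors added soon after differentiation had started. All titles hold D9 and P10, whose meaning the labels leave unstated, and the titles of all 6 samples with an Sbk2 shRNA open with 1 shared number, 11, whereas the 6 other samples each have a number of their own. Whether the 3 samples of each group are separate cultures is not stated either, and p-values therefore measure only the spread among them, which may be technical.

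Potassium channels let potassium leave the myocyte and so end the action potential and hold the resting potential. Pores of the Kv, KCNQ and ERG families open on depolarization, inward rectifiers pass current best near rest, two-pore channels give a background leak, and calcium- or sodium-activated channels answer ion entry. The atrium is known for the acetylcholine-gated inward rectifier, which slows the heart under vagal tone, and for a background current through Kcnk3. Accessory subunits with no pore of their own change the gating and trafficking of the pores.

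The deposited tables hold group means, from which the reads of each library were recovered by arithmetic, and library totals ran from 30274847 to 47517427 reads. Sbk2 itself averaged 1.07 CPM with shRNA 1 and 0.673 CPM with shRNA 2, against 27.1 CPM with ppluc and 45.2 CPM in untransduced cells. The 10 atrial myocyte markers Nppa, Myl7, Myl4, Myh6, Actc1, Tnnt2, Sln, Nppb, Gja5 and Bmp10 were all above 0.5 CPM in all groups. Their summed level moved with the groups, at 32618 to 37173 CPM in the shRNA 1 libraries and 18081 to 23433 CPM in the shRNA 2 libraries, against 69442 to 75668 CPM with ppluc and 74639 to 79462 CPM in untransduced cells. Nppb and Gja5 did not follow the sum in the comparison with ppluc. Nppb averaged 915 CPM with shRNA 1, 481 CPM with shRNA 2, 236 CPM with ppluc and 332 CPM in untransduced cells. Gja5 averaged 62.8, 0.925, 19.8 and 9.29 CPM in the same order. The other atrial markers averaged lower with each Sbk2 shRNA than with ppluc, but not all did so against untransduced cells. Bmp10 averaged 95.7 CPM with shRNA 1, 54.7 CPM with shRNA 2, 171 CPM with ppluc and 58.5 CPM in untransduced cells. Nppa averaged 17455, 13572, 27264 and 17825 CPM in the same order. The 4 smooth muscle markers were above 0.5 CPM in all groups and summed to 3082 to 3594 CPM with shRNA 1, 2265 to 3020.1 CPM with shRNA 2, 7088 to 7681 CPM with ppluc and 7332 to 8580.2 CPM in untransduced cells. This sum was mostly Acta2, which with Cnn1 and Smtn averaged lower with each Sbk2 shRNA than with ppluc. Myh11 went the other way with shRNA 2, averaging 2.02 CPM with shRNA 1, 17.6 CPM with shRNA 2, 2.67 CPM with ppluc and 2.09 CPM in untransduced cells. Of the 6 fibroblast markers 4 were under 0.5 CPM in each group, with Lum and Tcf21 at 0, and the sum was 32.0 to 36.3 CPM with shRNA 1, 19.4 to 25.8 CPM with shRNA 2, 129 to 164 CPM with ppluc and 94.6 to 108 CPM in untransduced cells. Of the 5 endothelial markers in the table Cdh5 and Emcn were at 0, and the sum, nearly all Kdr, was 209 to 225 CPM with shRNA 1, 56.4 to 97.8 CPM with shRNA 2, 142 to 154 CPM with ppluc and 130.04 to 152 CPM in untransduced cells. Of the 6 neuronal markers Rbfox3, Stmn2 and Elavl4 were at 0, and the sum, nearly all Syt1, was 34.1 to 36.5 CPM with shRNA 1, 36.7 to 47.0 CPM with shRNA 2, 61.5 to 68.8 CPM with ppluc and 36.0 to 39.7 CPM in untransduced cells. The 5 ventricular markers summed to 35.0 to 40.7 CPM with shRNA 1, 18.3 to 19.4 CPM with shRNA 2, 145 to 176 CPM with ppluc and 235 to 276 CPM in untransduced cells, nearly all Myh7 with ppluc and in untransduced cells. With shRNA 2 Hey2 averaged 10.5 CPM, above Myh7 at 8.30 CPM and above its own 7.72 CPM with ppluc. The 4 glial markers summed to at most 8.53 CPM and the 4 leukocyte markers to at most 0.261 CPM in any library. The part of these shifts in the channel results was not tested, and in bulk RNA fewer cells of a type and less RNA per cell cannot be told apart.

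The channel transcripts of these cells were dominated by 4 genes. Kcnh2, Kcnk3, Kcnj3 and Kcnj5 were the 4 highest in every group on the TPM scale, which corrects for transcript length and is given as the authors' group means. The 33 members summed to 377 TPM with shRNA 1, 296 TPM with shRNA 2, 599 TPM with ppluc and 796 TPM in untransduced cells. The 5 highest took 77.9% of that sum with shRNA 1, 79.8% with shRNA 2, 81.2% with ppluc and 79.1% in untransduced cells. Kcnh2, the pore of the rapid delayed rectifier, led with 85.2 TPM with shRNA 1, 83.6 TPM with shRNA 2, 209 TPM with ppluc and 249.8 TPM in untransduced cells. Kcnk3, a two-pore background channel and the next highest only in ppluc and untransduced cells, had 52.2 TPM with shRNA 1, 38.4 TPM with shRNA 2, 100.1 TPM with ppluc and 144 TPM in untransduced cells. Kcnj3 and Kcnj5, the partners of the acetylcholine-gated channel, differed less between groups. Kcnj3 had 80.4 TPM with shRNA 1, 77.0 TPM with shRNA 2, 91.5 TPM with ppluc and 112 TPM in untransduced cells. Kcnj5 had 56.2 TPM with shRNA 1, 29.2 TPM with shRNA 2, 53.7 TPM with ppluc and 68.7 TPM in untransduced cells. At the other end, 20 members reached 1 TPM with shRNA 1, 22 with shRNA 2, 18 with ppluc and 21 in untransduced cells.

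**Figure D1:**
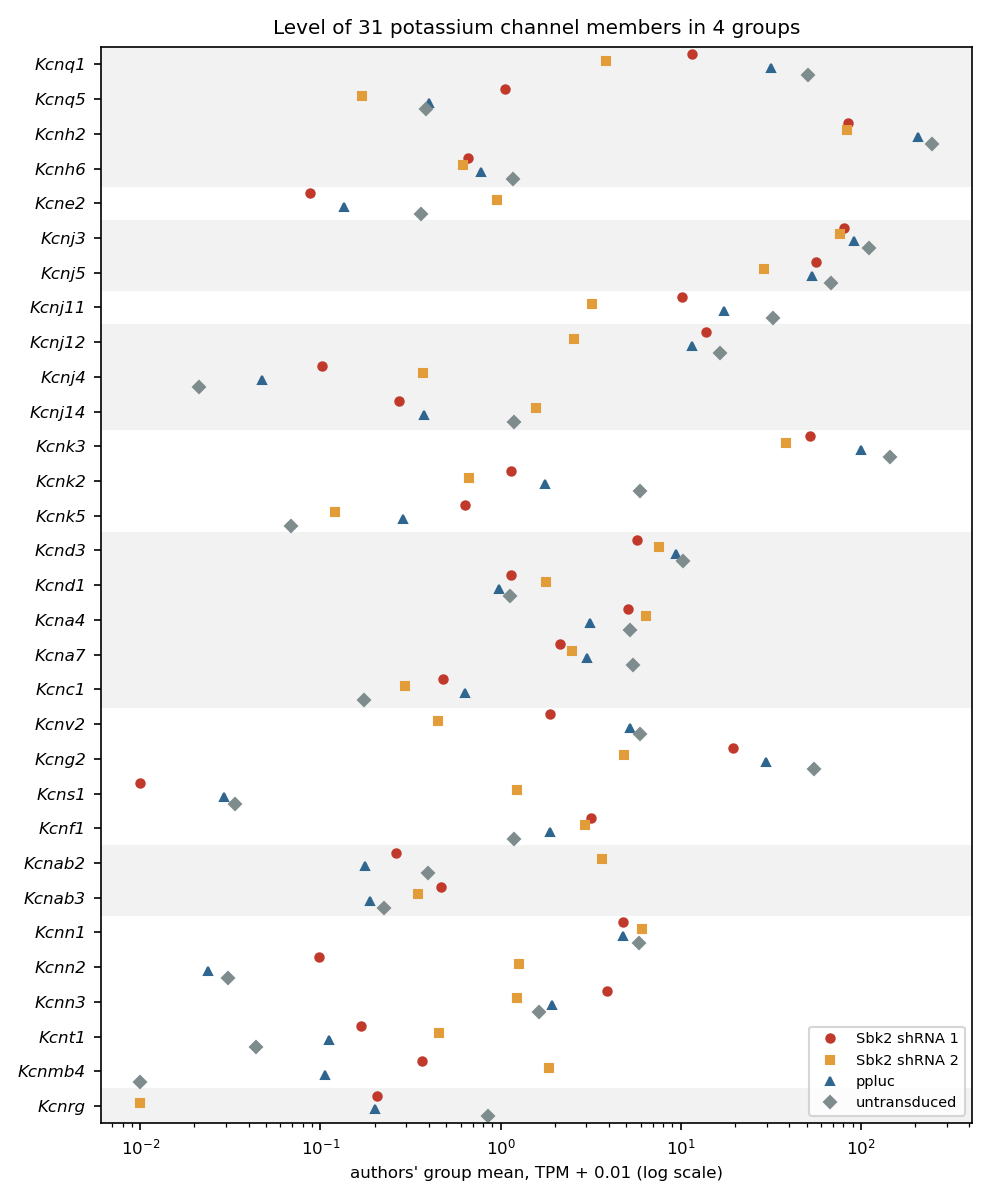
Authors' group mean of each of 31 potassium channel members in TPM plus 0.01 on a log axis, with shaded bands marking families and 1 symbol per group. Kcnh2, Kcnk3, Kcnj3 and Kcnj5 lie farthest right in all groups, and points at 0.01 are listed at 0 TPM. Kcnrg with shRNA 2 is listed at 0 TPM although it had 3, 5 and 7 reads in the recovered libraries.

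With shRNA 1 the clearest losses were those of Kcnv2, Kcnq1, Kcnh2 and Kcnk3, whose mean CPM was 3.02-, 2.70-, 2.59- and 2.09-fold lower than with ppluc. The largest rises on the log2 scale were those of Kcnq5, Kcnab3 and Kcnn3, whose mean CPM was 2.39-, 3.51- and 2.02-fold higher. Kcnk5 and Kcnt1 also rose, with mean CPM 2.24- and 2.07-fold higher. With shRNA 1 against ppluc, 7 of 32 members tested rose and 13 fell, where 54.7% of the 12493 features tested rose and 18.7% fell. The test was limma on log2(CPM + 0.5) of the recovered libraries, called where the p adjusted by Benjamini-Hochberg over the 12493 features was under 0.05, and Kcnn2 did not pass the filter of 0.5 CPM in 3 libraries. This scale understates the change of low genes. The members' median log2 change was -0.10, or -0.11 with Kcns1, at 0 reads with shRNA 1, set to its bound, against a median of 0.26 over all features. On the log2(CPM + 0.5) scale, used for all counts of 2-fold changes, no member was called higher by 2-fold or more and 4 were called lower by as much, where 8.18% and 3.19% of all features were. The libraries of the groups did not overlap in 22 of the 32 members, as in 76.6% of all features.

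With shRNA 2, mean CPM was 12.9-fold lower than with ppluc for Kcnv2, 7.09-fold for Kcnq1, 6.53-fold for Kcng2 and 5.21-fold for Kcnj11. It was 31.5-fold higher for Kcnab2. Kcns1, with only 4 reads in the 3 ppluc libraries, also rose and is described with its reads below. With shRNA 2 against ppluc, 13 of the 32 members rose and 17 fell, where 65.0% of all features rose and 21.1% fell. The members' median log2 change was -0.28, against 0.50 over all features. Of the members, 8 rose and 9 fell by 2-fold or more, where 25.9% and 6.73% of all features did. Among these 8, Kcns1, Kcnmb4, Kcne2 and Kcnj4 reached 0.5 CPM only in the shRNA 2 libraries. They were thus described and tested only through the group where they are called higher, and their calls are not independent of that choice. The libraries did not overlap in 29 of the 32 members, as in 85.2% of all features. The 2 comparisons share the 3 ppluc libraries and are not independent.

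Because the median feature stood above 0 against ppluc in both comparisons, most changes against ppluc are also given after trimmed-mean scaling, which put that median at 0.0095 with shRNA 1 and -0.0033 with shRNA 2. After scaling, 5 members rose and 16 fell with shRNA 1, where 33.8% and 33.7% of all features did. With shRNA 2, 10 rose and 18 fell after scaling, where 40.2% and 40.8% of all features did. The "scaled" values below are these log2 changes.

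**Figure D2:**
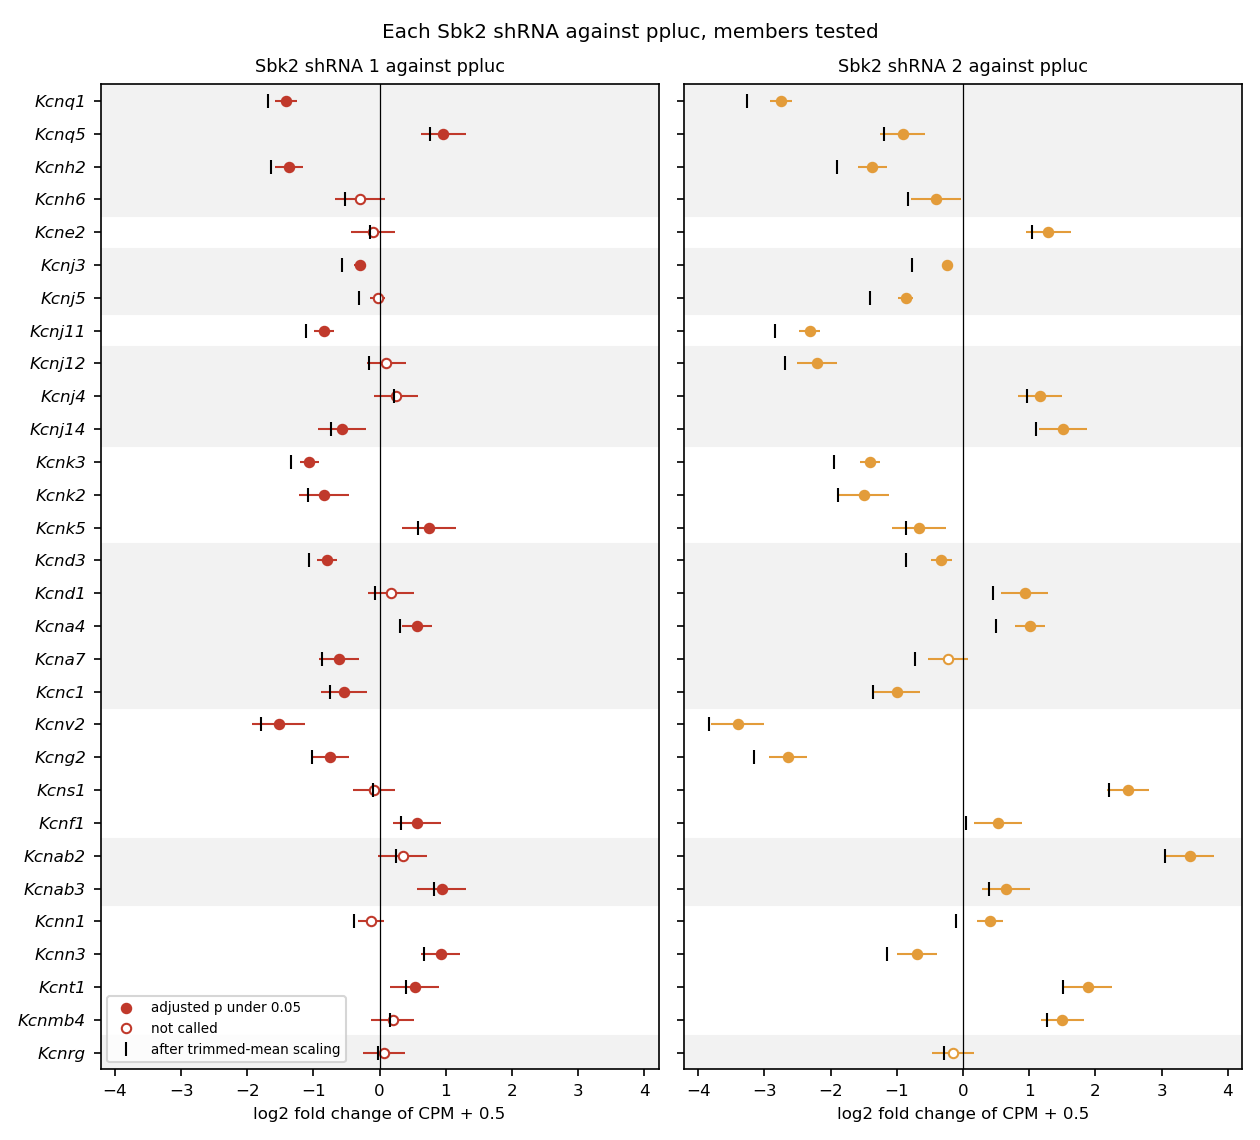
Log2 fold change of CPM plus 0.5 for 30 members with Sbk2 shRNA 1 (left) and Sbk2 shRNA 2 (right), each against ppluc. Circles are limma estimates with 95% intervals, filled where the adjusted p is under 0.05, and black ticks are the estimates after trimmed-mean scaling. Kcnv2 and Kcnq1 lie far left in both panels, and Kcnab2 and Kcns1 lie far right with shRNA 2.

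The pores of the rapid and slow delayed rectifiers, Kcnh2 and Kcnq1, fell with each Sbk2 shRNA. Kcnh2, on chromosome 4 from 7355574 to 7387253 in Rnor_6.0, had 199.7, 209 and 216 CPM in the 3 libraries with shRNA 1, 271, 177 and 189.8 CPM with shRNA 2, 540.4, 542 and 536 CPM with ppluc and 583, 629 and 624 CPM in untransduced cells. Every library with an Sbk2 shRNA lay below every ppluc library, and the first shRNA 2 library stood above the other two of its group. Kcnh2 changed by -1.37 ± 0.10 on the log2 scale with shRNA 1 (limma adjusted p = 9.1e-10, scaled -1.65). With shRNA 2 it changed by -1.37 ± 0.10 (limma adjusted p = 3.1e-10, scaled -1.91). Kcnq1, on chromosome 1 from 216293087 to 216630339, stood at 18.8, 19.2 and 20.3 CPM with shRNA 1, 7.15, 6.69 and 8.36 CPM with shRNA 2, 53.9, 54.7 and 49.0 CPM with ppluc and 81.8, 84.3 and 92.8 CPM in untransduced cells. The 4 groups did not overlap and stood in this order from shRNA 2, the lowest, through shRNA 1 and ppluc to untransduced cells. The change of Kcnq1 was -1.41 ± 0.08 with shRNA 1 (limma adjusted p = 1.9e-11, scaled -1.68) and -2.75 ± 0.08 with shRNA 2 (limma adjusted p = 5.8e-16, scaled -3.26).

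The other voltage-gated pores of these families were low. Kcnh6, a second ERG-type pore, had 1.49, 2.37 and 2.19 CPM with shRNA 1, 2.48, 1.55 and 1.52 CPM with shRNA 2, 2.64, 2.54 and 2.48 CPM with ppluc and 2.72, 4.27 and 3.19 CPM in untransduced cells. It fell with shRNA 2, close to the threshold, at -0.40 ± 0.18 (limma adjusted p = 0.045, scaled -0.83), and its change with shRNA 1 was -0.30 ± 0.18 (limma adjusted p = 0.14, after scaling 0.016). Kcnq5, a subunit of M-type channels in neurons, stood at 2.41, 3.16 and 2.39 CPM with shRNA 1, 0.457, 0.217 and 0.408 CPM with shRNA 2, 0.992, 1.18 and 1.16 CPM with ppluc and 1.59, 1.60 and 1.11 CPM in untransduced cells. All shRNA 1 libraries lay above and all shRNA 2 libraries below the ppluc libraries. Kcnq5 rose with shRNA 1 by 0.96 ± 0.16 (limma adjusted p = 3.2e-05, scaled 0.76) and changed by -0.91 ± 0.16 with shRNA 2 (limma adjusted p = 3.7e-05, scaled -1.19). Kcne2, a single-pass accessory subunit known to modify ERG and KCNQ pores, had 0, 0.0911 and 0.0985 CPM with shRNA 1, 1.01, 0.898 and 1.01 CPM with shRNA 2, 0.0522, 0.154 and 0.105 CPM with ppluc and 0.194, 0.401 and 0.257 CPM in untransduced cells. Its shRNA 2 libraries stood above all others and its shRNA 1 and ppluc libraries overlapped. The change was 1.29 ± 0.16 with shRNA 2 (limma adjusted p = 4.9e-07, scaled 1.04) and -0.10 ± 0.16 with shRNA 1 (limma adjusted p = 0.58, scaled -0.15).

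**Figure D3:**
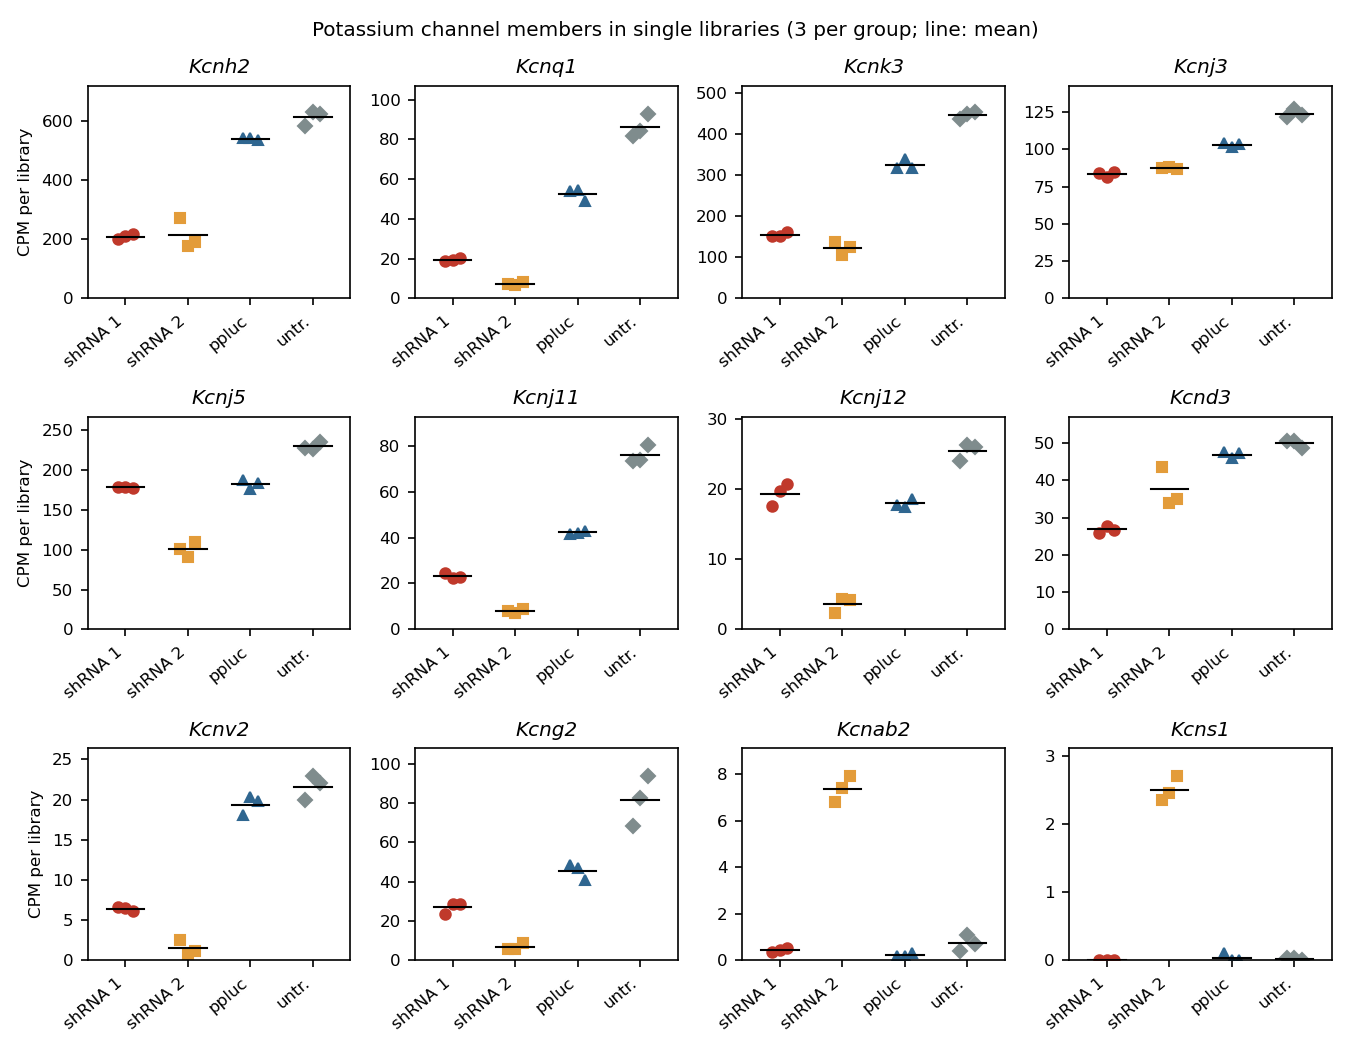
CPM of 12 potassium channel members in each recovered library, 3 per group, with the group mean as a line and linear axes from 0. Kcnh2, Kcnq1, Kcnk3 and Kcnj11 lie lower in all libraries with an Sbk2 shRNA than with ppluc, while Kcnab2 and Kcns1 are high in the shRNA 2 libraries.

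The acetylcholine-gated inward rectifier is formed by Kcnj3 and Kcnj5 and opens when G-protein beta-gamma subunits are released from muscarinic receptors. Kcnj3, on chromosome 3 from 41019898 to 41181070, had 84.2, 81.7 and 84.9 CPM with shRNA 1, 87.5, 88.5 and 86.5 CPM with shRNA 2, 105, 102 and 104 CPM with ppluc and 122, 127 and 123 CPM in untransduced cells. The spread within each group was small, and both Sbk2 shRNA groups lay below the ppluc group. Kcnj3 fell by a small step with each, -0.30 ± 0.04 with shRNA 1 (limma adjusted p = 2.7e-06, scaled -0.58) and -0.24 ± 0.04 with shRNA 2 (limma adjusted p = 3e-05, scaled -0.77). Kcnj5, on chromosome 8 from 33433905 to 33463467, stood at 179, 179 and 177 CPM with shRNA 1, 100.4, 91.2 and 109 CPM with shRNA 2, 187, 176 and 184 CPM with ppluc and 228, 227 and 235 CPM in untransduced cells. The shRNA 1 libraries overlapped those with ppluc, and the shRNA 2 libraries lay below all others. With shRNA 2 Kcnj5 fell, at -0.86 ± 0.05 (limma adjusted p = 2.4e-11, scaled -1.40). With shRNA 1 its change was -0.03 ± 0.05 (limma adjusted p = 0.6, 95% interval -0.14 to 0.08), and it was called lower after scaling, at -0.31 (limma adjusted p = 0.00012). Per length, Kcnj3 stood above Kcnj5 in all 4 group means on the TPM scale.

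Kcnj11 encodes the pore of ATP-sensitive channels, which open when ATP falls. On chromosome 1 from 102103094 to 102106127, it had 24.6, 22.5 and 22.8 CPM with shRNA 1, 8.13, 7.19 and 8.98 CPM with shRNA 2, 41.6, 42.1 and 43.0 CPM with ppluc and 73.3, 73.9 and 80.4 CPM in untransduced cells. No group overlapped another. Kcnj11 fell, with log2 changes of -0.84 ± 0.07 with shRNA 1 (limma adjusted p = 8.8e-09, scaled -1.11) and -2.32 ± 0.07 with shRNA 2 (limma adjusted p = 2.7e-15, scaled -2.83). Abcc8, the sulphonylurea receptor that assembles with Kcnj11 in mouse atrium, averaged 24.3 CPM with shRNA 1, 8.29 CPM with shRNA 2, 47.2 CPM with ppluc and 91.5 CPM in untransduced cells. Abcc8 changed by -0.94 ± 0.07 with shRNA 1 (limma adjusted p = 1.7e-09, scaled -1.21) and by -2.44 ± 0.07 with shRNA 2 (limma adjusted p = 1.2e-15, scaled -2.96). The other receptor of these channels, Abcc9, averaged 0 CPM with shRNA 1, 0.0109 CPM with shRNA 2, 0.0348 CPM with ppluc and 0.0286 CPM in untransduced cells and was not tested.

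Of the classical inward rectifiers, which set the resting potential, Kcnj12 was the most abundant here and Kcnj2, the usual ventricular one, was not among the genes described. Kcnj12, on chromosome 10 from 47281786 to 47341411, had 17.5, 19.7 and 20.8 CPM with shRNA 1, 2.35, 4.31 and 4.17 CPM with shRNA 2, 17.7, 17.5 and 18.6 CPM with ppluc and 23.9, 26.3 and 26.0 CPM in untransduced cells. The shRNA 2 libraries lay below all others, and the shRNA 1 libraries overlapped those with ppluc. With shRNA 2 Kcnj12 fell, at -2.20 ± 0.14 (limma adjusted p = 4e-11, scaled -2.69). Its change with shRNA 1 was 0.10 ± 0.14 (limma adjusted p = 0.53, 95% interval -0.20 to 0.40) and turned to -0.17 after scaling. Kcnj14, on chromosome 1 from 101805531 to 101809544, stood at 0.363, 0.213 and 0.714 CPM with shRNA 1, 3.17, 3.44 and 3.43 CPM with shRNA 2, 0.939, 0.847 and 0.758 CPM with ppluc and 2.82, 2.12 and 2.57 CPM in untransduced cells. Its shRNA 1 libraries lay below and its shRNA 2 libraries above the ppluc libraries. Kcnj14 fell, at -0.57 ± 0.17 with shRNA 1 (limma adjusted p = 0.006, scaled -0.73) and rose by 1.51 ± 0.17 with shRNA 2 (limma adjusted p = 1.3e-07, scaled 1.10). Kcnj4, the lowest of the 33 members by its highest group mean, had 1, 6 and 8 reads with shRNA 1, 22, 22 and 25 reads with shRNA 2, 2, 1 and 1 reads with ppluc and 0, 1 and 0 reads in untransduced cells. It rose with shRNA 2 by 1.16 ± 0.16 (limma adjusted p = 1.5e-06, scaled 0.97) and its change with shRNA 1 was 0.25 ± 0.16 (limma adjusted p = 0.17, scaled 0.22). With voom weights in place of this scale, the shRNA 1 value of Kcnj4 was 1.63 and called (limma adjusted p = 0.047).

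Two-pore channels give the background leak. Kcnk3, which is sensitive to acid and known for its atrial current, had on chromosome 6 from 27151612 to 27190132 152, 152 and 162 CPM with shRNA 1, 138, 105 and 126 CPM with shRNA 2, 317, 339 and 317 CPM with ppluc and 437, 449 and 453 CPM in untransduced cells. All libraries with an Sbk2 shRNA lay below the ppluc libraries, and those below the untransduced ones. Kcnk3 fell, with log2 changes of -1.06 ± 0.07 with shRNA 1 (limma adjusted p = 1.9e-10, scaled -1.34) and -1.41 ± 0.07 with shRNA 2 (limma adjusted p = 1.1e-12, scaled -1.94). Kcnk2, a stretch-sensitive channel, had 1.78, 2.22 and 1.33 CPM with shRNA 1, 0.849, 0.589 and 1.47 CPM with shRNA 2, 3.05, 3.70 and 3.87 CPM with ppluc and 12.0, 11.4 and 11.5 CPM in untransduced cells. The Sbk2 shRNA libraries were low, the ppluc libraries higher and the untransduced libraries far above both. Kcnk2 fell, with log2 changes of -0.84 ± 0.18 with shRNA 1 (limma adjusted p = 0.00045, scaled -1.08) and -1.50 ± 0.18 with shRNA 2 (limma adjusted p = 3.7e-07, scaled -1.89). Kcnk5, an alkaline-activated channel, stood at 1.26, 1.73 and 1.08 CPM with shRNA 1, 0.229, 0.279 and 0.0817 CPM with shRNA 2, 0.626, 0.745 and 0.442 CPM with ppluc and 0.0324, 0.258 and 0.0285 CPM in untransduced cells. It rose with shRNA 1 by 0.74 ± 0.19 (limma adjusted p = 0.002, scaled 0.58) and fell with shRNA 2, at -0.67 ± 0.19 (limma adjusted p = 0.0036, scaled -0.87).

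Among the Kv pores, the transient outward pores went different ways. Kcnd3, a fast transient outward pore on chromosome 2 from 207923775 to 208140727, had 25.9, 27.8 and 26.8 CPM with shRNA 1, 43.7, 34.0 and 35.0 CPM with shRNA 2, 47.6, 45.9 and 47.3 CPM with ppluc and 50.5, 50.6 and 48.6 CPM in untransduced cells. Its Sbk2 shRNA libraries lay below those with ppluc, and the first shRNA 2 library came nearest to them. Kcnd3 fell, with log2 changes of -0.80 ± 0.07 with shRNA 1 (limma adjusted p = 2e-08, scaled -1.07) and -0.33 ± 0.07 with shRNA 2 (limma adjusted p = 0.00048, scaled -0.86). Kcna4, a slowly recovering transient pore, had 10.3, 10.9 and 11.6 CPM with shRNA 1, 17.4, 14.1 and 14.0 CPM with shRNA 2, 7.96, 7.40 and 6.40 CPM with ppluc and 11.4, 11.1 and 12.9 CPM in untransduced cells. The ppluc libraries were the lowest, and the shRNA 1 and untransduced libraries overlapped. Kcna4 rose by 0.56 ± 0.11 with shRNA 1 (limma adjusted p = 0.00011, scaled 0.31) and by 1.01 ± 0.11 with shRNA 2 (limma adjusted p = 4.7e-08, scaled 0.50). Kcnd1, a relative of Kcnd3 on the X chromosome, averaged 3.01 ± 0.275 CPM with shRNA 1, 5.45 ± 0.619 CPM with shRNA 2, 2.68 ± 0.763 CPM with ppluc and 3.15 ± 0.582 CPM in untransduced cells (SD, n = 3 libraries each). Its rise with shRNA 2 was 0.93 ± 0.17 (limma adjusted p = 4.1e-05, scaled 0.45), and its value with shRNA 1 was 0.17 ± 0.17 (limma adjusted p = 0.37) and turned to -0.06 after scaling.

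The other Kv pores described are Kcna7 and Kcnc1. Kcna7 had 3.80, 5.59 and 6.13 CPM with shRNA 1, 6.93, 6.20 and 7.40 CPM with shRNA 2, 9.63, 6.78 and 7.98 CPM with ppluc and 14.8, 13.7 and 13.3 CPM in untransduced cells. It fell with shRNA 1, at -0.62 ± 0.15 (limma adjusted p = 0.00092, scaled -0.87), and with shRNA 2 its change of -0.22 ± 0.15 was called only after scaling (limma adjusted p = 0.16 before and 0.00019 after). Kcnc1 is a fast-closing high-threshold pore best known from neurons. It stood at 1.12, 1.34 and 1.53 CPM with shRNA 1, 1.08, 0.620 and 0.817 CPM with shRNA 2, 2.45, 1.75 and 2.29 CPM with ppluc and 0.518, 0.544 and 0.371 CPM in untransduced cells, so that the ppluc libraries were the highest. It fell, with log2 changes of -0.54 ± 0.16 with shRNA 1 (limma adjusted p = 0.0067, scaled -0.76) and -0.998 ± 0.16 with shRNA 2 (limma adjusted p = 1.6e-05, scaled -1.36).

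The silent Kv subunits Kcnv2, Kcng2, Kcns1 and Kcnf1 form no channel alone and change the gating of other Kv pores. They held both the member with the largest fall with shRNA 2 against ppluc, Kcnv2, and one that rose strongly there, Kcns1. Their promoters are shown because members of 1 role moved in opposite directions. RefSeq promoters, 250 bases before to 50 after the start of the gene, were matched by symbol for 20 of the 33 members, with 22 promoters in all, in the GRCr8 build. The 4 below are read 5′ to 3′ on the strand of the gene, and capitals mark matches on either strand to any of 10 motifs searched. These were TATAAA for the start-site box, CCAAT for NF-Y-type factors, GGGCGG for Sp-type factors, CACGTG for the E-box family, TGANTCA for AP-type factors, TGACGTCA for cyclic AMP response factors, AGATAA for GATA-type factors, TTCAGCACC for the neuron-restrictive repressor, the MEF2 motif and the CArG box. Kcnv2 lies at chr1:234412924-234413223 on the plus strand, Kcng2 at chr18:76083639-76083938 on the minus strand, Kcns1 at chr3:173262297-173262596 on the minus strand and Kcnf1 at chr6:45693657-45693956 on the minus strand.
Kcnv2: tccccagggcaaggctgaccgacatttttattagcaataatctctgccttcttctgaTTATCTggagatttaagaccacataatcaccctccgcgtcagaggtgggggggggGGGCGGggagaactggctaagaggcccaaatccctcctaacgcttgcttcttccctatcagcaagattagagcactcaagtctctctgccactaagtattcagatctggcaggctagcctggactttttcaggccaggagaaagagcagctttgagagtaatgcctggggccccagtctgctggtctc
Kcng2: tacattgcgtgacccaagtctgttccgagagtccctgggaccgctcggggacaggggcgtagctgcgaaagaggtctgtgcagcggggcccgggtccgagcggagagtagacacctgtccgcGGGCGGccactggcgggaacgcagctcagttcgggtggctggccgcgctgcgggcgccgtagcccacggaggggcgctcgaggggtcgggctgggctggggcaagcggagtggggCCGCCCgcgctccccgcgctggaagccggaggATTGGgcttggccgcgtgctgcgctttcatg
Kcns1: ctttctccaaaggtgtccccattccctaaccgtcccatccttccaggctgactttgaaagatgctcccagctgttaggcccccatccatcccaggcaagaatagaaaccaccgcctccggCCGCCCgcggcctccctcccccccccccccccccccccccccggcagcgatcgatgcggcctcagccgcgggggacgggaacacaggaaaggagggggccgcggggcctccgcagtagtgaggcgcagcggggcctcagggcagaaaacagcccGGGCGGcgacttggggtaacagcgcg
Kcnf1: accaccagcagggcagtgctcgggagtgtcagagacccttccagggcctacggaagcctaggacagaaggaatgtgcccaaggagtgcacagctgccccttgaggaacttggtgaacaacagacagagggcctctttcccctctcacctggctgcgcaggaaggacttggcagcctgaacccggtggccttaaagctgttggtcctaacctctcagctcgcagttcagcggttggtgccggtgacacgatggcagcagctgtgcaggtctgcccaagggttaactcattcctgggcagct

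The Sp-type motif was found in the promoters of Kcnv2, Kcng2 and Kcns1, and in 33.1% of all 33469 rat promoters of this length. The GATA-type motif was found in Kcnv2 and in 11.6% of all promoters, and the NF-Y-type motif in Kcng2 and in 37.5% of all. In Kcnf1 none of the 10 motifs was found. No 2 matches overlapped in these 4 promoters. The neuron-restrictive motif was found in 1 member promoter, that of Kcnh6, and in 0.356% of all. These matches describe letters and not binding.

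Kcnv2, on chromosome 1 from 245396989 to 245416531 in Rnor_6.0, had 6.61, 6.53 and 6.11 CPM with shRNA 1, 2.52, 0.836 and 1.14 CPM with shRNA 2, 18.0, 20.3 and 19.8 CPM with ppluc and 19.9, 22.9 and 22.0 CPM in untransduced cells. Both Sbk2 shRNA groups lay far below the control groups, which overlapped. Kcnv2 fell, with log2 changes of -1.52 ± 0.19 with shRNA 1 (limma adjusted p = 9.8e-07, scaled -1.79) and -3.40 ± 0.19 with shRNA 2 (limma adjusted p = 5.9e-12, scaled -3.83). Kcng2, on chromosome 18 from 76809144 to 76878981, stood at 23.5, 28.9 and 28.6 CPM with shRNA 1, 5.98, 5.89 and 9.04 CPM with shRNA 2, 48.6, 47.2 and 40.7 CPM with ppluc and 68.5, 82.4 and 93.7 CPM in untransduced cells. The 4 groups did not overlap, with shRNA 2 lowest and untransduced cells highest. Kcng2 fell, with log2 changes of -0.75 ± 0.13 with shRNA 1 (limma adjusted p = 7.1e-05, scaled -1.02) and -2.65 ± 0.13 with shRNA 2 (limma adjusted p = 1.5e-12, scaled -3.16). Kcns1, on chromosome 3 from 160554425 to 160561741, had 0, 0 and 0 reads with shRNA 1, 72, 79 and 99 reads with shRNA 2, 4, 0 and 0 reads with ppluc and 1, 1 and 0 reads in untransduced cells. It was thus at 2.35, 2.45 and 2.70 CPM in the shRNA 2 libraries and near or at 0 elsewhere. Kcns1 rose with shRNA 2 by 2.49 ± 0.15 (limma adjusted p = 1.6e-11, scaled 2.21), and with shRNA 1 the 0 reads allow up to 3, or 0.0289 CPM over the group, against 4 reads with ppluc.

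Kcnf1, the fourth silent subunit, had 6.04, 5.83 and 5.81 CPM with shRNA 1, 7.61, 6.10 and 4.06 CPM with shRNA 2, 3.42, 3.90 and 4.17 CPM with ppluc and 2.75, 2.41 and 1.77 CPM in untransduced cells. Its shRNA 2 libraries overlapped those with ppluc. The change was 0.57 ± 0.17 with shRNA 1 (limma adjusted p = 0.0067, scaled 0.32) and 0.53 ± 0.17 with shRNA 2 (limma adjusted p = 0.008, scaled 0.05), and neither was called after scaling (limma adjusted p = 0.12 and 0.81).

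The cytosolic beta subunits of Kv channels, which carry an aldo-keto reductase fold, rose with shRNA 2. Kcnab2, on chromosome 5 from 169572517 to 169658875, had 0.363, 0.425 and 0.517 CPM with shRNA 1, 6.83, 7.40 and 7.92 CPM with shRNA 2, 0.183, 0.205 and 0.316 CPM with ppluc and 0.421, 1.09 and 0.713 CPM in untransduced cells. The shRNA 2 libraries stood far above all others. Kcnab2 rose by 3.43 ± 0.17 with shRNA 2 (limma adjusted p = 1.5e-12, scaled 3.05), the largest positive log2 change among the 32 members in that comparison. With shRNA 1 its change was 0.35 ± 0.17 (limma adjusted p = 0.08, scaled 0.25), with the 3 libraries above those with ppluc. Kcnab3 stood at 1.22, 0.820 and 0.911 CPM with shRNA 1, 0.555, 0.743 and 0.844 CPM with shRNA 2, 0.418, 0.128 and 0.295 CPM with ppluc and 0.356, 0.258 and 0.314 CPM in untransduced cells. It rose with shRNA 1 by 0.94 ± 0.17 (limma adjusted p = 9.1e-05, scaled 0.82) and with shRNA 2 by 0.65 ± 0.17 (limma adjusted p = 0.002, scaled 0.39).

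The calcium-activated small-conductance subunits are Kcnn1, Kcnn2 and Kcnn3, and each took its own course. Kcnn3, on chromosome 2 from 188844073 to 188988774, had 7.30, 7.56 and 7.85 CPM with shRNA 1, 2.87, 1.98 and 1.66 CPM with shRNA 2, 3.71, 3.65 and 3.91 CPM with ppluc and 3.08, 3.69 and 3.53 CPM in untransduced cells. The shRNA 1 libraries were the highest and the shRNA 2 libraries the lowest. Kcnn3 rose by 0.92 ± 0.14 with shRNA 1 (limma adjusted p = 1.1e-05, scaled 0.68) and changed by -0.70 ± 0.14 with shRNA 2 (limma adjusted p = 0.00016, scaled -1.14). Kcnn2, with 2 features of that name of which 1 was described, had 1, 6 and 4 reads with shRNA 1, 36, 33 and 18 reads with shRNA 2, 0, 0 and 1 reads with ppluc and 1, 0 and 0 reads in untransduced cells. Its reads were thus mostly in the shRNA 2 libraries, and it was not tested. Kcnn1 averaged 10.2 ± 0.715 CPM with shRNA 1, 15.1 ± 0.241 CPM with shRNA 2, 11.2 ± 1.03 CPM with ppluc and 14.3 ± 1.49 CPM in untransduced cells (SD, n = 3 libraries each). Its rise with shRNA 2 of 0.41 ± 0.09 (limma adjusted p = 0.00047) turned to -0.11 after scaling and was then not called (limma adjusted p = 0.3). With shRNA 1 its change was -0.13 ± 0.09 (limma adjusted p = 0.23, after scaling 0.0012).

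Kcnt1 encodes a sodium-activated pore and Kcnmb4 a beta subunit of large-conductance calcium-activated channels. Kcnt1 had 0.892, 0.911 and 0.517 CPM with shRNA 1, 2.58, 2.14 and 3.59 CPM with shRNA 2, 0.339, 0.359 and 0.421 CPM with ppluc and 0.194, 0.200 and 0.228 CPM in untransduced cells. The shRNA 2 libraries were the highest, and all shRNA 1 libraries lay above those with ppluc. Kcnt1 rose by 1.88 ± 0.18 with shRNA 2 (limma adjusted p = 8.6e-09, scaled 1.52) and by 0.53 ± 0.18 with shRNA 1 (limma adjusted p = 0.011, after scaling 0.052). Kcnmb4 had 6, 3 and 5 reads with shRNA 1, 34, 33 and 40 reads with shRNA 2, 5, 0 and 2 reads with ppluc and 0, 0 and 0 reads in untransduced cells. It rose with shRNA 2 (limma log2 change 1.50 ± 0.16, adjusted p = 3.7e-08, scaled 1.27), while with shRNA 1 its value was 0.20 ± 0.16 (limma adjusted p = 0.26, scaled 0.16). With voom weights the shRNA 1 value of Kcnmb4 was 1.65 and called (limma adjusted p = 0.044). Kcnma1, the pore that Kcnmb4 accompanies, was below the level at which genes were described. Kcnrg, a regulator that hinders the assembly of Kv channels, averaged 0.256 ± 0.0524 CPM with shRNA 1, 0.148 ± 0.0467 CPM with shRNA 2, 0.222 ± 0.0685 CPM with ppluc and 0.855 ± 0.0544 CPM in untransduced cells (SD, n = 3 libraries each). Neither Sbk2 shRNA gave a call for Kcnrg (limma adjusted p = 0.7 with shRNA 1 and 0.35 with shRNA 2), and its shRNA 1 value of 0.07 turned to -0.02 after scaling.

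Set against each other, the 2 Sbk2 shRNAs differed most in the beta subunit Kcnab2, the silent subunits Kcns1, Kcng2 and Kcnv2 and the inward rectifiers Kcnj12 and Kcnj14. With shRNA 1 against shRNA 2, 13 of the 32 members were higher and 13 lower, where 27.8% of all features were higher and 53.3% lower. After scaling, 16 were higher and 10 lower, where 38.9% and 38.8% of all features were. The members' median log2 difference was 0.07, against -0.25 over all features, and 9 members were higher and 6 lower by 2-fold or more, where 7.70% and 15.2% of all features were. Among those called lower, Kcns1, Kcnmb4, Kcne2 and Kcnj4 were tested only because of their level in the shRNA 2 libraries. The libraries did not overlap in 26 of the 32 members, as in 81.1% of all features. Higher with shRNA 1 were the pores Kcnj12 at 2.31 ± 0.14 (limma adjusted p = 3.2e-11, scaled 2.53), Kcnj11 at 1.47 ± 0.07 (limma adjusted p = 1.6e-12, scaled 1.72) and Kcnq1 at 1.34 ± 0.08 (limma adjusted p = 1.5e-11, scaled 1.58). The same held for the silent subunits Kcng2 at 1.90 ± 0.13 (limma adjusted p = 2.5e-10) and Kcnv2 at 1.88 ± 0.19 (limma adjusted p = 4e-08). Lower with shRNA 1 was Kcnab2 at -3.08 ± 0.17 (limma adjusted p = 1e-11, scaled -2.80). Kcns1 was at least 86.5-fold lower with shRNA 1, taking 3 reads over the group as the most that 0 reads allow. In each of these 7 genes the 3 libraries of one group lay wholly apart from those of the other.

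For 4 of the 32 members the calls against ppluc had opposite signs with the 2 shRNAs. Higher with shRNA 1 and lower with shRNA 2 were 3 members, and 1 was the reverse, where 6.84% and 7.00% of all features were. Opposite calls were thus about as common among the members as over all features. The direct comparison gives the size of the gap. Kcnq5, Kcnn3 and Kcnk5 were higher with shRNA 1 by 1.87 ± 0.16 (limma adjusted p = 4.1e-09), 1.62 ± 0.14 (limma adjusted p = 4.6e-09) and 1.41 ± 0.19 (limma adjusted p = 2e-06) on the log2 scale. Kcnj14 was lower with shRNA 1, at -2.08 ± 0.17 (limma adjusted p = 2e-09). These signs held after scaling, with values of 1.95, 1.82, 1.45 and -1.83.

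The 4 most abundant members differed less between the 2 shRNAs than the genes named just above, with Kcnj5 the farthest apart of the 4. Kcnh2 differed by 0.00 ± 0.10, with a 95% interval of -0.22 to 0.21 (limma adjusted p = 0.97), and by 0.26 after scaling, where it was called (limma adjusted p = 0.039). Without the first shRNA 2 library it was 0.18 and called (limma adjusted p = 0.0014). Kcnj3 differed by -0.07 ± 0.04, with an interval of -0.15 to 0.02 (limma adjusted p = 0.15), and turned to 0.20 after scaling (limma adjusted p = 0.00024). Kcnk3 was higher with shRNA 1 by 0.34 ± 0.07 (limma adjusted p = 0.00019, scaled 0.61), and Kcnj5 was higher with shRNA 1 by 0.83 ± 0.05 (limma adjusted p = 6.3e-11, scaled 1.09). Kcnd3 was lower with shRNA 1, at -0.47 ± 0.07 (limma adjusted p = 1.2e-05, scaled -0.21). The calls of Kcna4 and Kcna7 were lost after scaling, at -0.45 and -0.39 before and -0.19 and -0.15 after.

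**Figure D4:**
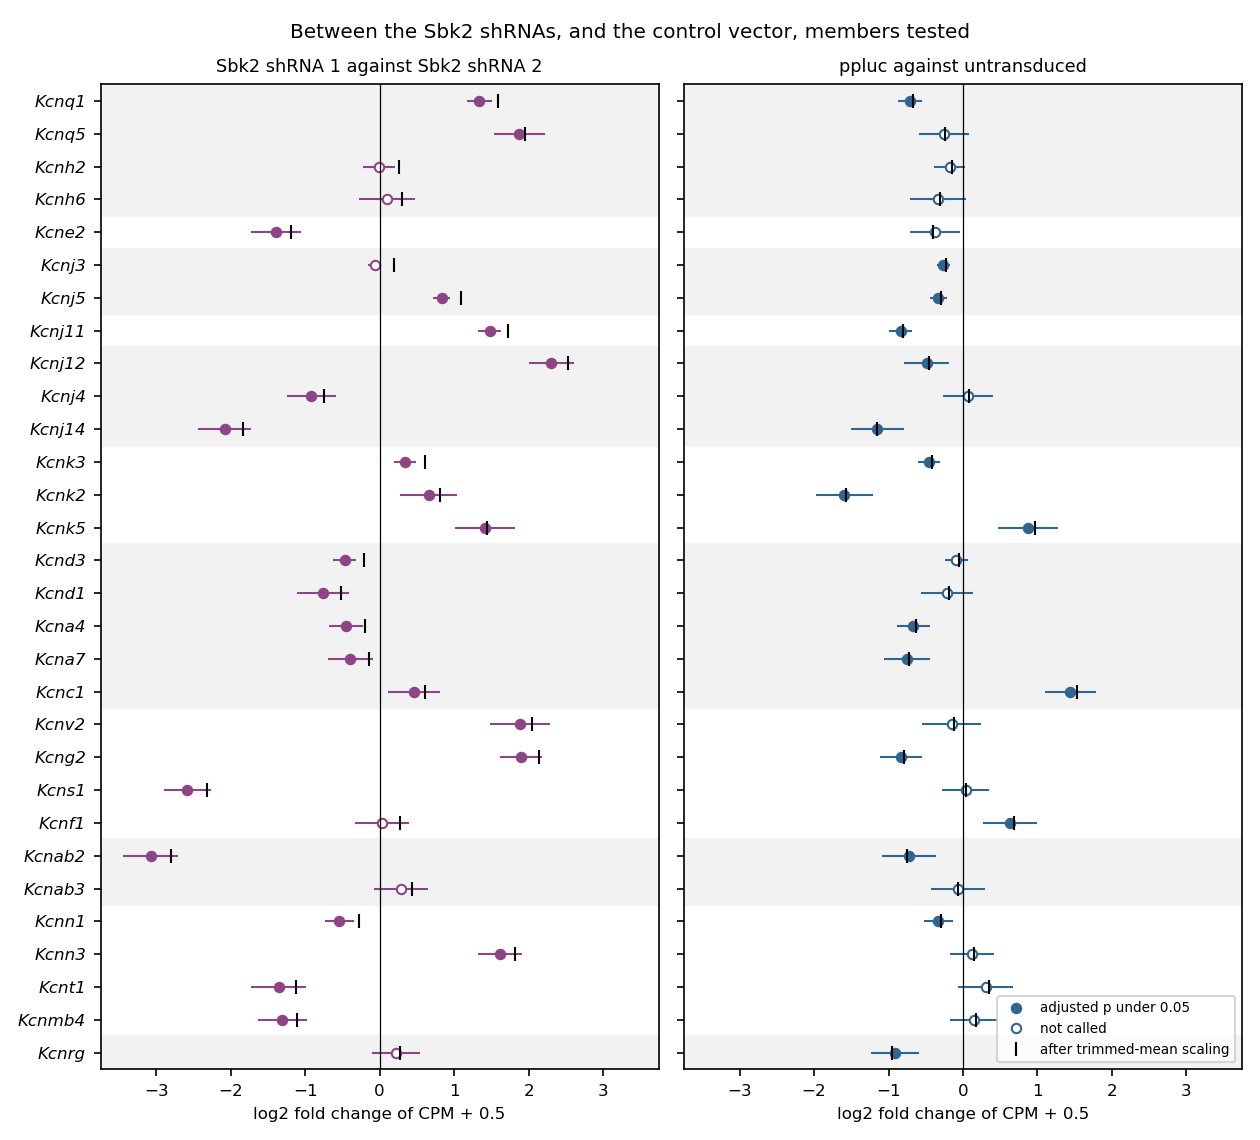
Log2 fold change of CPM plus 0.5 for 30 members with Sbk2 shRNA 1 against Sbk2 shRNA 2 (left) and with ppluc against untransduced cells (right). Circles are limma estimates with 95% intervals, filled where the adjusted p is under 0.05, and black ticks are the estimates after trimmed-mean scaling. Kcnab2 and Kcns1 lie farthest left in the left panel, and Kcnk2 farthest left and Kcnc1 farthest right in the right panel.

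Channel genes also differed between the ppluc and untransduced groups, and what in the transduction or handling lay behind this was not tested. With ppluc against untransduced cells, 4 of the 32 members rose and 14 fell, where 24.9% of all features rose and 32.3% fell. The members' median log2 change was -0.26, against -0.04 over all features, and 1 member rose and 2 fell by 2-fold or more, where 2.04% and 2.23% of all features did. The libraries did not overlap in 23 of the 32 members, as in 64.4% of all features. The largest falls in genes of 1 CPM or more were log2 changes of -1.59 ± 0.18 for Kcnk2 (limma adjusted p = 7.6e-07), -1.15 ± 0.17 for Kcnj14 (limma adjusted p = 1.5e-05) and -0.84 ± 0.07 for Kcnj11 (limma adjusted p = 2.6e-08). Kcng2 changed by -0.83 ± 0.13 (limma adjusted p = 4.1e-05), Kcna7 by -0.75 ± 0.15 (limma adjusted p = 0.00023) and Kcnq1 by -0.71 ± 0.08 (limma adjusted p = 4.2e-07). The libraries of the ppluc and untransduced groups did not overlap in any of these 6 genes. Kcna4 changed by -0.67 ± 0.11 (limma adjusted p = 3.3e-05) and Kcnj12 by -0.49 ± 0.14 (limma adjusted p = 0.0066). Kcnrg and Kcnab2, both under 1 CPM in these groups, also fell, at -0.91 ± 0.15 and -0.72 ± 0.17 (limma adjusted p = 5.2e-05 and 0.0017), and so did Kcnn1, at -0.33 ± 0.09 (limma adjusted p = 0.0053). Kcnrg was described and tested only through its level in the untransduced libraries, so its call is not independent of that choice.

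Members that rose with ppluc included Kcnc1, Kcnk5 and Kcnf1. Their changes were 1.44 ± 0.16 for Kcnc1 (limma adjusted p = 7e-07), 0.88 ± 0.19 for Kcnk5 (limma adjusted p = 0.00077) and 0.64 ± 0.17 for Kcnf1 (limma adjusted p = 0.0042). Of the abundant members, Kcnk3, Kcnj5 and Kcnj3 fell, at -0.46 ± 0.07, -0.33 ± 0.05 and -0.26 ± 0.04 (limma adjusted p = 2e-05, 3.5e-05 and 2.9e-05). Kcnh2 was not called, at -0.18 ± 0.10 (limma adjusted p = 0.14, 95% interval -0.39 to 0.03), and neither was Kcnd3, at -0.09 ± 0.07 (limma adjusted p = 0.33).

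The partners of these channels are the receptors, G proteins, anchors and transcription factors listed for them, 48 genes of which 35 were tested. With shRNA 1 against ppluc 11 of the 35 rose and 14 fell, where 54.7% and 18.7% of all features did, and after scaling 7 rose and 19 fell, where 33.8% and 33.7% did. With shRNA 2 against ppluc 12 rose and 20 fell, where 65.0% and 21.1% of all features did, and after scaling 7 rose and 24 fell, where 40.2% and 40.8% did. With ppluc against untransduced cells 6 rose and 16 fell, where 24.9% and 32.3% of all features did. The partners' median log2 changes in these comparisons were -0.01, -0.32 and -0.17, against 0.26, 0.50 and -0.04 over all features. Only some of the 35 are given in detail, and others changed as much. Ptk2b averaged 274 CPM with shRNA 1, 27.7 CPM with shRNA 2, 217 CPM with ppluc and 164 CPM in untransduced cells. In that order, the G proteins Gnai2 and Gnao1 averaged 195, 311, 409 and 291 CPM and 56.8, 48.9, 127 and 169 CPM. Likewise, Gng2 averaged 51.8, 32.1, 75.6 and 306 CPM and Dlg4 14.9, 45.5, 13.7 and 15.4 CPM. Chrm2, the muscarinic receptor that opens the Kcnj3 and Kcnj5 channel, averaged 277 CPM with shRNA 1, 299 CPM with shRNA 2, 339 CPM with ppluc and 336 CPM in untransduced cells. It fell, with log2 changes of -0.29 ± 0.06 with shRNA 1 (limma adjusted p = 0.00054, scaled -0.56) and -0.19 ± 0.06 with shRNA 2 (limma adjusted p = 0.012, scaled -0.73). Adora1, the adenosine receptor that opens the same channel, fell, with log2 changes of -0.57 ± 0.06 with shRNA 1 (limma adjusted p = 5.6e-08, scaled -0.85) and -1.17 ± 0.06 with shRNA 2 (limma adjusted p = 9.3e-13, scaled -1.71). Rgs6, which ends that signal, changed by -0.77 ± 0.07 with shRNA 1 (limma adjusted p = 1.3e-08, scaled -1.04) and by -1.31 ± 0.07 with shRNA 2 (limma adjusted p = 2.4e-12, scaled -1.85). Gnb5, the G-protein subunit that pairs with Rgs6, rose with shRNA 2 by 1.36 ± 0.09 (limma adjusted p = 6.1e-11, scaled 0.83), while its value with shRNA 1 was 0.10 ± 0.09 (limma adjusted p = 0.32) and turned to -0.16 after scaling.

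Of the anchors and regulators, Cav3, the muscle caveolin, averaged 82.8 CPM with shRNA 1, 49.5 CPM with shRNA 2, 292 CPM with ppluc and 271 CPM in untransduced cells. Cav3 fell, with log2 changes of -1.81 ± 0.05 with shRNA 1 (limma adjusted p = 2.7e-15, scaled -2.08) and -2.55 ± 0.05 with shRNA 2 (limma adjusted p = 4.8e-18, scaled -3.08). Rnf207, a ubiquitin ligase known to act on the Kcnh2 channel, fell, with log2 changes of -0.74 ± 0.12 with shRNA 1 (limma adjusted p = 2.4e-05, scaled -1.01) and -1.70 ± 0.12 with shRNA 2 (limma adjusted p = 1.8e-10, scaled -2.23). Akap9, the anchor of the Kcnq1 channel, rose and averaged 167 CPM with shRNA 1, 198 CPM with shRNA 2, 123 CPM with ppluc and 118 CPM in untransduced cells (limma adjusted p = 1e-05 with shRNA 1 and 1.6e-08 with shRNA 2). After scaling its change was 0.17 with shRNA 1 (limma adjusted p = 0.048) and 0.15 with shRNA 2, where it was no longer called (limma adjusted p = 0.063). Amigo1, an accessory protein of Kv channels, changed by -0.31 ± 0.06 with shRNA 1 (limma adjusted p = 0.00021, scaled -0.58) and 0.14 ± 0.06 with shRNA 2 (limma adjusted p = 0.038). The positive value with shRNA 2 turned to -0.39 after scaling. Rest, a repressor of neuronal genes, rose with shRNA 1 by 0.41 ± 0.05 (limma adjusted p = 1.5e-06, scaled 0.14) and with shRNA 2 by 0.76 ± 0.05 (limma adjusted p = 1.6e-10, scaled 0.22).

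The 61 Kcn features below 0.5 CPM in all groups include genes that atrial myocytes are known for. Of them 25 had 0 reads in all 12 libraries and 53 stayed under 0.1 CPM in every group mean. Kcna5, the pore of the ultrarapid delayed rectifier of human atrium and one of the 6 genes taken as markers of this gene group, had 0 reads in all 12 libraries, which allows up to 0.00699 CPM over the pooled reads. Kcne1, the partner of Kcnq1 in the slow delayed rectifier, averaged 0.0246 CPM with shRNA 1, 0.0406 CPM with shRNA 2, 0.237 CPM with ppluc and 0.243 CPM in untransduced cells. The members just inside the threshold by their highest group mean were Kcnj4 at 0.694 CPM, Kcnrg at 0.855 CPM and Kcnn2 at 0.896 CPM. Just outside it were Kcnj9 at 0.474 CPM, Kcnip3 at 0.396 CPM and Kcng4 at 0.389 CPM. Kcnj9, a relative of Kcnj3, reached that level with shRNA 2, and Kcng4, a silent subunit, with ppluc.

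In the deposited locus table, of the 33 members, 4 overlap another annotated feature, Kcnab2, Kcnmb4, Kcnq5 and Kcnrg, and each of those features was at 0 CPM in all 4 groups.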

How the data were processed

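RNA of 12 iAM-1 samples in 4 groups of 3 was sequenced as directional polyA libraries with paired 150-bp reads, per the labels' protocols. The authors deposited CPM values (counts per 1000000 reads of the library) for 32761 features and TPM values (also scaled by transcript length), each averaged over the 3 libraries of a group. They also deposited a table of loci, whose build, Rnor_6.0, is named in the submitters' processing notes, whose starts are 0-based and were raised by 1. These notes name DESeq2 without a role. The sources used here do not give how reads were aligned or counted, whether by strand, or what was done with reads shared by several genes.

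Single libraries were recovered from the CPM means. Each mean is the sum of 3 whole read numbers, each over its library total, divided by 3. The totals of a group follow from its 3 most frequent values, and whole-number triples that return the stored mean were found by lattice reduction. A single exact triple was found for 99.7% to 99.96% of features above 0 per group and for all 33 members, whereas means shifted by 1e-10 of their size had an exact one in 1 of 3000 cases per group. For the most abundant features only library values within a set distance of the mean were searched. The recovered reads did not add up exactly, and their sum per library differed from its total by -1.03% to 0.523%. Where several triples fitted, in 25 to 68 features per group, those spread more widely than nearly all abundant features were set aside, and the widest of any still left was used. The recovered libraries carry no replicate number and are numbered by total. The floor of 3 reads is 0.0631 to 0.0991 CPM per library and covers counting error only.

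Features with 0.5 CPM in at least 3 libraries (12493) were fitted with limma 3.58.1 in R 4.3.3 on log2(CPM + 0.5), with eBayes and a trend, 1 mean per group and all 12 libraries. The 4 comparisons were called at a Benjamini-Hochberg adjusted p under 0.05, and ± after a log2 change is the standard error. The recovery and the test were tried on simulated data. There few features changed and the median feature did not shift, unlike here, so that trial does not bear on the choice of scaling. Alternatives were trimmed-mean and median-of-ratios scaling, pseudocounts of 0.1 and 1 CPM, no filter, voom weights and leaving out each library. Full values were given, by rule, for the 6 genes Kcnq1, Kcnj3, Kcnj5, Kcna5, Kcnd3 and Kcnh2 and for up to 10 called members per comparison with the largest change, the higher mean at 1 CPM or more and no overlap of libraries. The values of 2 of the 33 members, which all counts include, are not reported here. The members and lists were chosen with earlier results of these data known. Python 3.11.15 did the rest.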

Additional observations from a re-analysis of the deposited data

Results flagged for a closer look

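For 4 of the 32 members the Sbk2 shRNAs gave calls of opposite sign against ppluc, and the direct comparison of the 2 shRNAs was itself called. Higher with shRNA 1 and lower with shRNA 2 were 3 members and 6.84% of all features. The reverse held for 1 member and 7.00% of all features. On the log2 scale, shRNA 1 minus shRNA 2 was 1.87 for Kcnq5, 1.62 for Kcnn3, 1.41 for Kcnk5 and -2.08 for Kcnj14. Kcnq5, Kcnk5 and Kcnj14 are low genes. Kcnq5 had 73, 104 and 97 reads with shRNA 1, 14, 7 and 15 with shRNA 2 and 38, 46 and 55 with ppluc. There were 38, 57 and 44 reads of Kcnk5 in the shRNA 1 libraries, 7, 9 and 3 in the shRNA 2 libraries and 24, 29 and 21 with ppluc. Kcnj14 had 11, 7 and 29 reads with shRNA 1, 97, 111 and 126 with shRNA 2 and 36, 33 and 36 with ppluc. Both calls against ppluc rest on the same ppluc libraries.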

How the results depend on the processing

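The counts of called members stayed within 1.5 times their value under all 144 combinations of count and alternative tried. Leaving out 1 library at a time gave 19 to 21 called members with shRNA 1 against ppluc, 29 to 30 with shRNA 2 against ppluc, 25 to 27 with shRNA 1 against shRNA 2 and 18 to 19 with ppluc against untransduced cells. Over all 32 members and 4 comparisons, trimmed-mean scaling changed the call or sign of 20 of 128 values. It ended 8 calls, among them those of Kcnf1 with each shRNA, Kcnt1 with shRNA 1, Kcnn1 with shRNA 2 and Kcna4 and Kcna7 between the shRNAs. It added 8, those of Kcnj5, Kcnn1 and Kcnh6 with shRNA 1, Kcna7 with shRNA 2, Kcnj3, Kcnh2 and Kcnab3 between the shRNAs and Kcne2 with ppluc against untransduced cells. It turned the sign of 4 values that were not called either way, among them those of Kcnj12, Kcnd1 and Kcnrg with shRNA 1. For the genes given in full by rule, 652 of 660 values under all alternatives kept direction and call. Kcnj5 with shRNA 1 against ppluc passed the threshold after scaling, at -0.31 under both methods. With shRNA 1 against shRNA 2, Kcnj3 turned to 0.20 after trimmed-mean and 0.18 after median-of-ratios scaling. Kcnh2 in the same comparison turned to 0.26 and 0.24, and ran from -0.13 to 0.18 when single libraries were left out, the highest, without the first shRNA 2 library, being called (limma adjusted p = 0.0014). Without the first shRNA 1 library the log2 difference was 0.025 and not called (limma adjusted p = 0.85). No paired analysis was possible because the tables hold group means and the recovered libraries carry no replicate number. Members of a few reads per library, Kcnj4, Kcnn2, Kcne2, Kcns1 and Kcnmb4, are limited by depth in the groups where they are near 0.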
